A study of Mus musculus with 28 samples.

Results

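The unfolded protein response is how a cell answers unfolded proteins that build up in the endoplasmic reticulum (ER), in part by raising transcripts. Here the mRNA of 10 of its genes was followed in the amygdala of drinking mice. They are *Hspa5*, *Hsp90b1*, *Calr*, *Pdia4*, *Herpud1*, *Xbp1*, *Atf4*, *Ddit3*, *Trib3* and *Sdf2l1*, taken by gene symbol and present among the 49477 genes that the count tables of both batches share. Of the 10, 9 reached a mean of 10 counts over the mice and were tested with 16266 genes in all. *Trib3* was below that minimum.

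All 28 mice were adult female C57BL/6J mice, killed after a 2-bottle choice drinking period. RNA came from micropunches that hold the central and basolateral amygdala. The 10 Water mice were given water alone, the 9 Acute Drinking mice had a single access to 20% alcohol at the end of the period, and the 9 Chronic Drinking mice had 20% alcohol on alternate days throughout it. Drinking was voluntary, so the dose was not fixed. The mice came in 2 batches, with 4 Water, 4 Acute and 3 Chronic mice in the first and 6 Water, 5 Acute and 6 Chronic mice in the second. Total counts per mouse were between 20004380 and 22569562.

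The response starts at sensors in the ER membrane. IRE1 (*Ern1*) splices the mRNA of *Xbp1*, which then encodes an active transcription factor. ATF6 travels to the Golgi and is cut into a transcription factor, and PERK (*Eif2ak3*) phosphorylates eIF2α, which slows translation in general while *Atf4* mRNA is translated more. ATF6 and XBP1 raise ER chaperones and degradation factors, whereas ATF4 raises amino acid and redox genes and, with them, *Ddit3* and *Trib3*. Because other kinases phosphorylate eIF2α as well, the ATF4 branch is also called the integrated stress response. Counts per gene report the amount of mRNA and not the splicing of *Xbp1* or the translation of *Atf4*.

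The upstream sequences below are shown because they hold the element, or a variant of it, through which ATF6 and XBP1 are known to act. Not every chaperone gene held one. The ER stress response element (ERSE, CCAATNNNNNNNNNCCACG), its variant ERSE-II (ATTGG and CCACG with 1 base between them), the UPRE (TGACGTGG) and the C/EBP-ATF response element (CARE, TGATGCAA) of ATF4 and CHOP were searched on both strands. The windows were the RefSeq promoters (GRCm38.p6), each with 250 bases before and 50 after a gene start, and all 10 genes were in that table. A match was required in every fixed letter, and ERSE and ERSE-II do not overlap in any of the genes below. In the lines that follow, each stretch is written 5′ to 3′ on the strand of its gene and capitals mark the element.
Hspa5, chr2:34772020-34772048, plus strand, ERSE: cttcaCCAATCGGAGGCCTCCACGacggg
Hsp90b1, chr10:86705513-86705676, minus strand, 2 ERSE: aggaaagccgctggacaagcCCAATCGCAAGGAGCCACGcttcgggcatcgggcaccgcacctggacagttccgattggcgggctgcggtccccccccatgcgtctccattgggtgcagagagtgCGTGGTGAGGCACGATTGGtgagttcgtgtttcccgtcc
Calr, chr8:84847055-84847113, minus strand, ERSE: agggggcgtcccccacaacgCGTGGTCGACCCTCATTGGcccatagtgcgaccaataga
Herpud1, chr8:94386357-94386407, plus strand, ERSE-II: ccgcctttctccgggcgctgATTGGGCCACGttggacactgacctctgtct
Pdia6, chr12:17266471-17266529, plus strand, ERSE: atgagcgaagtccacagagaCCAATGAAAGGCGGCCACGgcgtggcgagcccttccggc

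*Pdia6* is no member of the list and is shown because it followed *Hspa5* closely between mice, as described further on. The elements of *Hspa5*, *Pdia6* and *Herpud1* and the first of *Hsp90b1* read as given on the strand of the gene, and those of *Calr* and the second of *Hsp90b1* read on the opposite strand. An exact ERSE was in 3 of the 10 promoters (*Hspa5*, *Hsp90b1* and *Calr*), against 0.119% of all 32851 promoters. ERSE-II was in 1 (*Herpud1*), against 0.0365% of promoters. A CARE was also in the promoter of *Herpud1* alone among the 10, against 0.895% of promoters, and the UPRE, in 0.676% of promoters, was in none of them. Among the other ER chaperones and folding enzymes, 5 of the 16 in the table held an ERSE (*Canx*, *Pdia6*, *Dnajc3*, *Creld2* and *Ero1lb*) and *Dnajb11* held an ERSE-II. No exact match says only that these letters are not in this window.

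The genes differed widely in level at baseline. On a scale of CPM (counts scaled to an equal library size) per kilobase of the longest coding transcript, the Water mice held 178 ± 8.84 (SD, n = 10) of *Calr*, the calcium-binding chaperone calreticulin, and 128 ± 6.41 of *Hsp90b1*, the ER form of HSP90. *Hspa5*, the HSP70 of the ER also known as BiP, was at 59.4 ± 5.43. The transcription factors *Atf4* and *Xbp1* followed at 48.3 ± 2.85 and 34.1 ± 2.86, ahead of *Herpud1*, a membrane protein of ER-associated degradation, at 23.0 ± 1.20. *Ddit3*, which encodes the transcription factor CHOP, was at 15.8 ± 1.61 and *Pdia4*, a protein disulfide isomerase, at 15.2 ± 1.55, and this pair of neighbours did not differ beyond its spread. *Sdf2l1*, a chaperone cofactor of BiP complexes, was at 4.43 ± 0.774. *Trib3*, a pseudokinase induced by ATF4 and CHOP, was last at 0.233 ± 0.0784, with 3 to 14 counts in each of the 28 mice.

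All 10 genes lie on the autosomes of GRCm38 as annotated by GENCODE M21. *Hspa5* (ENSMUSG00000026864) is at chr2:34771970-34777547, *Hsp90b1* (ENSMUSG00000020048) at chr10:86690209-86705509, *Calr* (ENSMUSG00000003814) at chr8:84841850-84846934 and *Pdia4* (ENSMUSG00000025823) at chr6:47796141-47813430. *Herpud1* (ENSMUSG00000031770) is at chr8:94386438-94395377, *Sdf2l1* (ENSMUSG00000022769) at chr16:17130138-17132383 and *Xbp1* (ENSMUSG00000020484) at chr11:5520659-5525893. *Atf4* (ENSMUSG00000042406) is at chr15:80255184-80257541, *Ddit3* (ENSMUSG00000025408) at chr10:127290774-127296288 and *Trib3* (ENSMUSG00000032715) at chr2:152337422-152344032. The longest *Hspa5* transcript of GENCODE starts upstream of the RefSeq start used above, so its ERSE is inside that transcript and upstream of the other coding one. *Mars* overlaps *Ddit3* on the opposite strand, and so do 1810014B01Rik for *Hsp90b1* and Gm15890 for *Herpud1*. Whether reads were assigned by strand is not given in the sources used here, so values of these genes carry that uncertainty. A second gene model named *Ddit3* had 0 counts in every mouse and was left out.

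**Figure D1:**
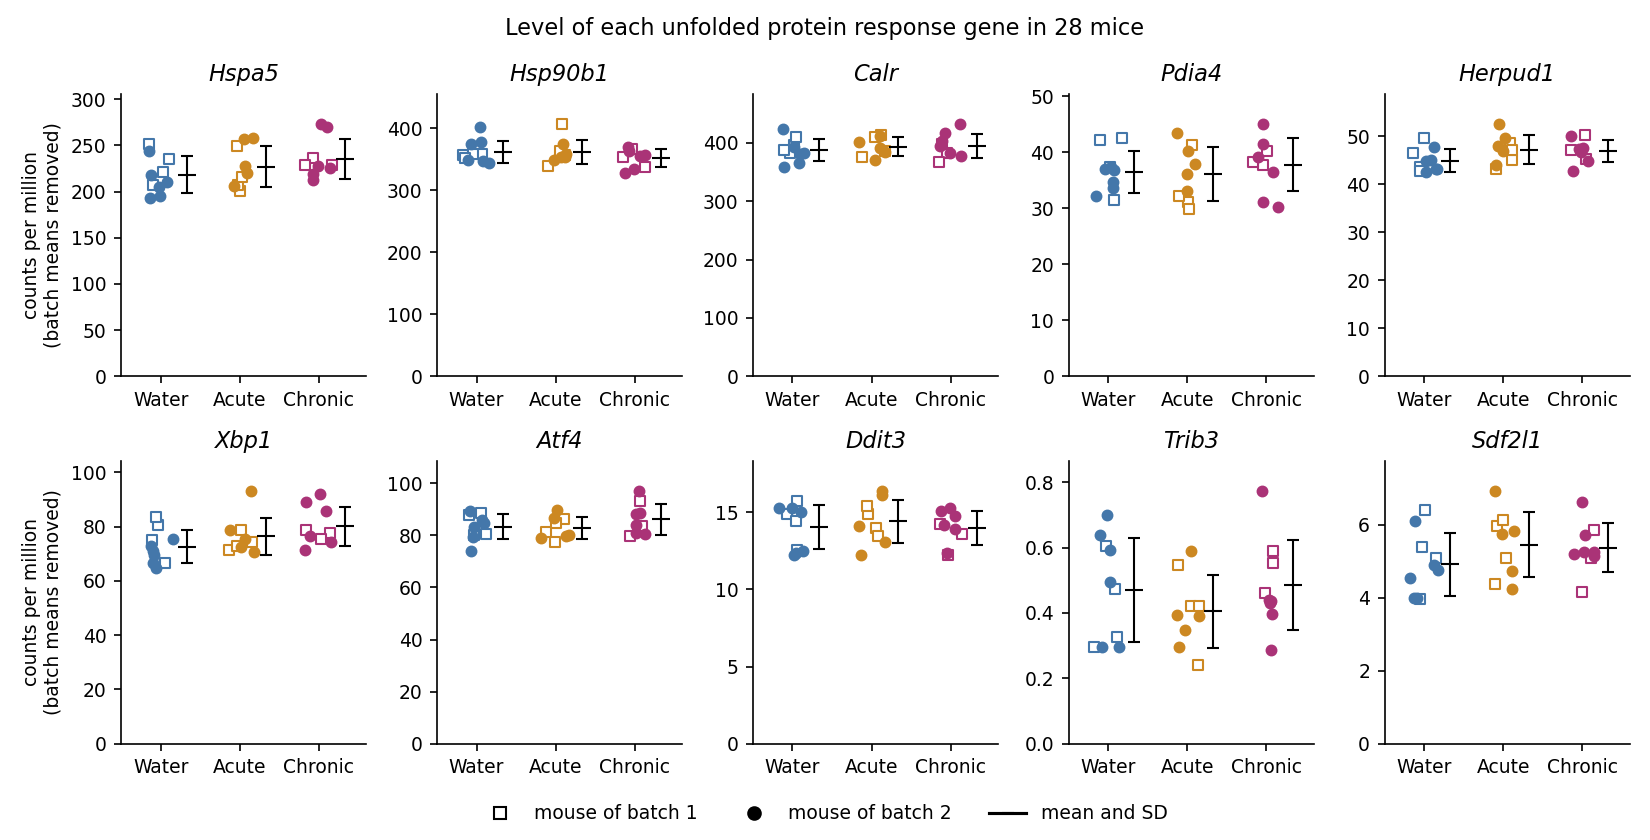
Level of each of the 10 genes in every mouse, in CPM after removal of batch means (vertical axes start at 0), by drinking group. Open squares are mice of batch 1 and filled circles mice of batch 2, bars give the mean and SD of the 10 Water, 9 Acute and 9 Chronic mice, and the 3 groups overlap for all 10 genes.

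No member differed between drinking groups past the threshold. In each of the comparisons of Acute with Water, Chronic with Water and Chronic with Acute, 0 of 9 members had an adjusted p under 0.05 in edgeR's quasi-likelihood test, which held batch as a covariate. Over all 16266 genes the shares called were 0% (0 genes), 0.0184% (3 genes) and 0% (0 genes). At an unadjusted p under 0.05, 0 of 9 members passed in Acute against Water, beside 9.52% of all genes, 1 of 9 in Chronic against Water, beside 10.5%, and 0 of 9 in Chronic against Acute, beside 4.44%. DESeq2 with batch as a covariate also called 0 members, but gave no adjusted p for *Sdf2l1* in either drinking group and for *Ddit3* in Chronic mice. In bulk tissue, fewer cells of a type and less RNA per cell cannot be told apart.

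The chaperone *Hspa5* is the usual readout of ER stress. Its level, in CPM with batch means removed as in all values per group below, had a lowest, median and highest value of 194, 214 and 251 in the Water mice. The Acute mice gave 201, 220 and 258 and the Chronic mice 212, 228 and 273. The medians differed by less than the range within any group, and the groups overlapped. Against Water, the log2 fold change was 0.050 ± 0.059 (SE, adjusted p = 0.823) in Acute and 0.10 ± 0.059 (adjusted p = 0.547) in Chronic mice. As a change in percent the Chronic difference was 7.55, with a 95% interval of -1.11 to 17.0, and 8 of 9 Chronic mice were above the Water mean. By batch, the Chronic log2 fold change was -0.00094 (batch 1) and 0.17 (batch 2). Its unadjusted p of 0.0867 fell under 0.05 in 4 of 12 alternative settings, among them offsets for GC content and gene length (0.13, unadjusted p = 0.0374, edgeR adjusted p = 0.748), and in 2 of 28 fits without 1 mouse.

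*Xbp1* in Chronic mice was the member at an unadjusted p under 0.05 in the fit of both batches, as in 10 of 12 alternative settings and 27 of 28 fits without 1 mouse. It had a lowest, median and highest level of 64.8, 72.0 and 83.5 in Water, 70.6, 74.4 and 93.0 in the Acute, and 71.5, 77.5 and 92.1 in the Chronic mice. The Chronic mice were higher by a log2 fold change of 0.13 ± 0.055 (unadjusted p = 0.0213, edgeR adjusted p = 0.373), or 9.76% with a 95% interval of 1.50% to 18.7%. Again 8 of 9 Chronic mice were above the Water mean. The Acute log2 fold change was 0.066 ± 0.055 (adjusted p = 0.718), or 0.023 without Acute mouse 2. By batch, the Acute value was -0.055 (batch 1) and 0.15 (batch 2, unadjusted p = 0.0443). In the first batch the Water mice were at 66.6, 74.9, 80.4 and 83.5 and the Chronic mice at 75.2, 77.5 and 78.6, inside the Water range. In the second the 6 Water mice ran from 64.8 to 75.3 and the 6 Chronic mice from 71.5 to 92.1. The log2 fold change was accordingly -0.00022 (batch 1) and 0.22 (batch 2). The difference between batches was 0.22 ± 0.11 (unadjusted p = 0.0556, adjusted p = 0.814, interaction term of edgeR). Offsets for GC content and gene length lowered the log2 fold change to 0.11 (unadjusted p = 0.0560).

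The other luminal chaperones were close to Water. *Hsp90b1* had a lowest, median and highest level of 344, 357 and 402 in Water, 339, 358 and 407 in the Acute and 327, 356 and 370 in the Chronic mice. Against Water it was at a log2 fold change of -0.0066 ± 0.033 after acute and -0.046 ± 0.033 after chronic drinking (adjusted p = 0.968 and 0.649). *Calr* was between 358 and 424 in Water, 370 and 414 in the Acute, and 367 and 433 in the Chronic mice. The medians of *Calr* were 386, 391 and 396, and both fold changes against Water, 0.015 and 0.020 on the log2 scale, had narrow 95% intervals, from -3.61% to 5.89% and from -3.26% to 6.29%.

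*Pdia4* varied more between mice. Its level had a lowest, median and highest value of 31.5, 36.9 and 42.5 in Water, 29.9, 36.1 and 43.5 in the Acute, and 30.2, 38.3 and 45.1 in the Chronic mice. The log2 fold changes were -0.023 ± 0.077 (adjusted p = 0.951) and 0.041 ± 0.077 (adjusted p = 0.892) in Acute and Chronic mice. In the first batch the Acute mice were at 29.9, 31.2, 32.1 and 41.3, and in the second at 33.1, 36.1, 37.9, 40.3 and 43.5. By batch, the Acute log2 fold change was -0.21 and 0.11, and the difference of 0.32 ± 0.15 had an unadjusted p of 0.0419 and an adjusted p of 0.999. *Sdf2l1*, the member with the fewest counts among those tested (75 to 141), was between 3.96 and 6.40 in Water, 4.24 and 6.91 in the Acute, and 4.14 and 6.62 in the Chronic mice. Its log2 fold changes of 0.14 ± 0.11 and 0.12 ± 0.11 (adjusted p = 0.680 and 0.727) were the largest of the Acute members and second to *Xbp1* among the Chronic members, with intervals that reached from -5.00% to 28.4% and from -6.55% to 26.5%.

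The degradation factor *Herpud1* had medians of 44.3, 47.2 and 47.2 in Water, Acute and Chronic mice, with ranges of 42.7 to 49.6, 43.2 to 52.6 and 42.8 to 50.3. The log2 fold change was 0.067 ± 0.037 (unadjusted p = 0.0824, adjusted p = 0.583) in Acute and 0.058 ± 0.037 (adjusted p = 0.609) in Chronic mice. Of the 9 mice in each group, 7 Acute and 8 Chronic mice were above the Water mean. By batch, the Acute value was -0.0047 and 0.12 (unadjusted p = 0.0230 in batch 2), and the unadjusted p of both batches fell under 0.05 in 3 of 28 fits without 1 mouse.

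The genes of the integrated stress response also overlapped between groups. *Atf4* had medians of 84.1, 81.2 and 84.1 in Water, Acute and Chronic mice, and its highest mouse was a Chronic mouse at 96.9. The log2 fold change was -0.016 ± 0.040 (Acute) and 0.043 ± 0.040 (Chronic) (adjusted p = 0.935 and 0.741). For *Ddit3*, the proapoptotic factor downstream of ATF4, the medians were 14.7, 14.1 and 14.2, and the log2 fold changes were 0.032 ± 0.063 and -0.013 ± 0.064 (adjusted p = 0.907 and 0.966). *Trib3* had medians of 8, 6 and 7 counts in Water, Acute and Chronic mice. A fit without the minimum count gave it a log2 fold change of -0.27 ± 0.28 after acute and 0.055 ± 0.27 after chronic drinking, so at this depth changes of the size of its standard error were not detectable.

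**Figure D2:**
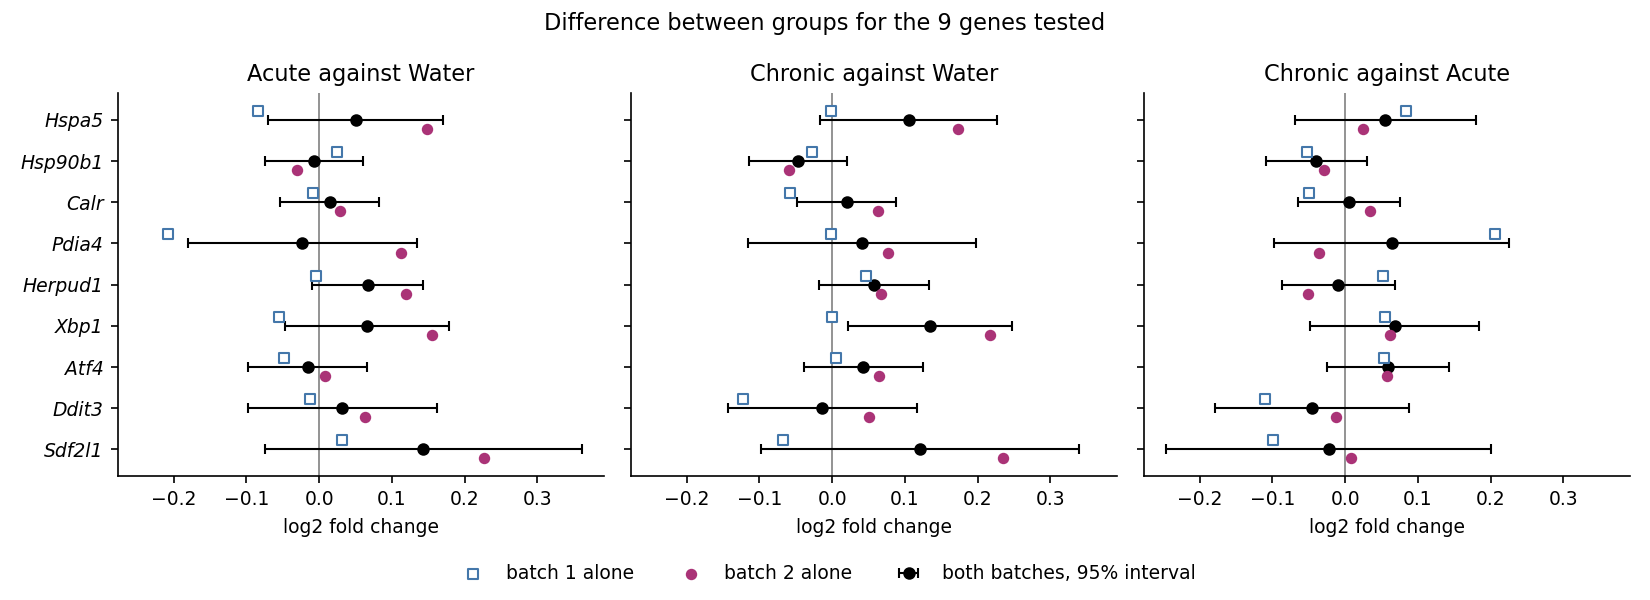
Log2 fold change of the 9 tested genes in the comparisons of Acute with Water, Chronic with Water and Chronic with Acute. Black points with bars are the fit of both batches with its 95% interval, open squares the first batch alone and filled circles the second alone; *Xbp1* in Chronic against Water (0.13) is the single interval that leaves out 0, and its batch values are -0.00022 and 0.22.

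Chronic and Acute mice were also compared with each other. The largest log2 fold changes among the members were 0.068 ± 0.057 for *Xbp1* and 0.064 ± 0.079 for *Pdia4*, and the smallest adjusted p was 0.998. For the interaction of drinking with batch, 0 of 9 members had an adjusted p under 0.05 in either drinking group, beside 0% and 0.00615% of all genes. At an unadjusted p under 0.05, 1 of 9 members passed in the Acute group (*Pdia4*, beside 4.13% of all genes) and 0 of 9 in the Chronic group (beside 6.15%). In *Hspa5* the Acute difference between batches was 0.23 ± 0.11 (unadjusted p = 0.0564, adjusted p = 0.999). In *Xbp1* it was 0.21 ± 0.11 (unadjusted p = 0.0610, adjusted p = 0.999).

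Genes around the members in the pathway were taken from lists of known function, with 72 of 75 genes tested in 5 lists and 15 of 15 heat shock genes. None had an adjusted p under 0.05 in any comparison. At an unadjusted p under 0.05, 2 of the 72 were higher and 2 lower in Acute mice, and 2 were higher and 3 lower in Chronic mice, beside the 9.52% and 10.5% of all genes. The median log2 fold change over the 72 was 0.013 in Acute and 0.018 in Chronic mice, against 0.0011 and 0.0022 over all genes.

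Among the 11 genes of sensors, the proteases that cut ATF6 (*Mbtps1* and *Mbtps2*) and transcription factors, *Cebpb*, a bZIP factor that pairs with CHOP, was higher in Chronic mice with 5.01 ± 0.682 CPM (SD, n = 9) against 3.97 ± 0.784 in Water (n = 10). Its log2 fold change of 0.33 ± 0.11 had an unadjusted p of 0.00567 and an adjusted p of 0.272 in edgeR, all 9 Chronic mice were above the Water mean, and the batches gave 0.51 and 0.24. The sensor *Atf6* had a log2 fold change of -0.095 ± 0.038 in Chronic mice (adjusted p = 0.361), which was -0.035 with offsets for GC content and gene length, and *Creb3*, another factor released from the ER membrane, was at 0.10 ± 0.047 in Acute mice (adjusted p = 0.502). The 7 genes of eIF2 regulation, which are kinases and phosphatase subunits with *Eif2s1* (eIF2α) and *Eif2b5* (its exchange factor), gave 1 gene at the unadjusted threshold, *Eif2ak4* (GCN2, which senses uncharged tRNA), at -0.079 ± 0.037 in Acute mice (adjusted p = 0.502).

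In ER-associated degradation, *Edem1*, which feeds misfolded glycoproteins to degradation, was at 15.6 ± 1.10 CPM in Water, 14.5 ± 1.14 in the Acute and 14.0 ± 0.956 in the Chronic mice. The log2 fold changes were -0.11 ± 0.050 (unadjusted p = 0.0314, adjusted p = 0.497) and -0.16 ± 0.050 (unadjusted p = 0.00382, adjusted p = 0.241), and they were negative in both batches. With the offsets they were -0.076 and -0.11. *Herpud2* was at -0.070 ± 0.025 (adjusted p = 0.301) in Chronic mice, opposite in sign to *Herpud1*. *Derl3*, a retrotranslocation factor, was at 0.28 in Chronic mice (unadjusted p = 0.0208, adjusted p = 0.371 in edgeR). Its level was low, with a mean of 1.68 against 1.40 CPM in Water.

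No gene of the 18 tested ER chaperones and folding enzymes passed the unadjusted threshold in Acute or Chronic mice. Their median log2 fold changes were 0.026 and 0.017, and the ends of their ranges were -0.074 and 0.083 in Acute and -0.066 and 0.087 in Chronic mice. Of the 20 tested target genes of ATF4, *Psat1*, an enzyme of serine synthesis, passed the unadjusted threshold in Acute mice (0.088 ± 0.039, adjusted p = 0.497) and none in Chronic mice. In Chronic against Acute 4 of the 20 passed it, beside 4.44% of all genes. They were *Sesn2* (0.17 ± 0.066) and *Slc7a11* (0.14 ± 0.069), higher in Chronic mice, and *Ddit4* (-0.16 ± 0.068) and *Psat1* (-0.11 ± 0.040), lower, each with an adjusted p of 0.998. None of the other pathway or heat shock genes passed the unadjusted threshold in that comparison.

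The heat shock genes, which are chaperones and co-chaperones of the cytosol and mitochondria with the transcription factor *Hsf1*, gave 1 and 4 genes of 15 at the unadjusted threshold in Acute and Chronic mice, beside 9.52% and 10.5% of all genes. *Hspa4*, a nucleotide exchange factor of the HSP110 family, was at 244 ± 5.69 CPM in Water, 237 ± 5.57 in the Acute and 233 ± 9.36 in the Chronic mice. Against Water its log2 fold change was -0.049 ± 0.023 (adjusted p = 0.502) and -0.073 ± 0.023 (adjusted p = 0.241), or -0.028 and -0.039 with the offsets for GC content and gene length. *Hsph1*, its relative, was at -0.10 ± 0.043 and the mitochondrial *Hspd1* at -0.065 ± 0.032 in Chronic mice, while the inducible *Hspa1a* was at 0.18 ± 0.081 (adjusted p = 0.376, 0.474 and 0.434). By batch, *Hsph1* was at -0.093 and -0.11, *Hspd1* at -0.0076 and -0.10 with 5 of 9 Chronic mice below the Water mean, and *Hspa1a* at 0.042 and 0.26. With the offsets the unadjusted p was between 0.109 and 0.155 for *Creb3*, *Eif2ak4*, *Edem1* and *Hspa4* in Acute mice. In Chronic mice it was between 0.0517 and 0.330 for *Atf6*, *Derl3*, *Hsph1*, *Hspa1a* and *Hspd1*, so these 9 results no longer passed the unadjusted threshold. Each kept the sign of its log2 fold change, with *Creb3* at 0.070 and *Eif2ak4* at -0.055 in Acute mice. In Chronic mice *Derl3* was at 0.22, *Hsph1* at -0.084, *Hspa1a* at 0.14 and *Hspd1* at -0.059.

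The members were then compared between mice after additive terms for batch and group. The choice of the genes, by symbol, did not use this readout. Earlier results of these data were known when the genes and lists were chosen. For every gene, log2 CPM were regressed on batch and group, and the residual of each mouse is its distance, on the log2 scale, from the value that this sum of a batch and a group effect gives. Differences of a drinking effect between the batches therefore remain in the residuals. The SD of these residuals was 0.14 for *Hspa5*, 0.12 for *Xbp1*, 0.18 for *Pdia4* and 0.23 for *Sdf2l1*. It was 0.070 for both *Hsp90b1* and *Calr*, 0.079 for *Herpud1*, 0.088 for *Atf4* and 0.14 for *Ddit3*, against a median of 0.14 over all tested genes. The spread of *Sdf2l1* includes the counting error of about 100 counts per mouse, with a mean of 106.

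*Pdia4* and *Xbp1* varied together with *Hspa5* from mouse to mouse. In limma's test of every gene against *Hspa5*, with batch and group as covariates, 2 of the other 8 members had an adjusted p under 0.05, beside 14 of 16265 genes (0.0861%). They were *Pdia4* (adjusted p = 0.0192) and *Xbp1* (adjusted p = 0.0278). Among all genes ordered by Pearson's r with *Hspa5*, *Pdia4* was in place 5 and *Xbp1* in place 9, and *Calr*, *Sdf2l1* and *Hsp90b1* were in places 21, 35 and 123.

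For *Pdia4* the residuals gave r = 0.76 and Spearman's rho = 0.76 over the 28 mice (permutation p = 1e-05 and 2e-05 from 100000 resamples within batches, of which 1e-05 is the smallest they can give). For *Xbp1* they gave r = 0.74 and rho = 0.63 (permutation p = 1e-05 and 0.00056). Water mouse 40 of the first batch and Chronic mouse 4 of the second were farthest from the median of *Hspa5*, at residuals of 0.22 and 0.22, and both were high in *Pdia4* (0.24 and 0.14) and in *Xbp1* (0.16 and 0.21). Without them r was 0.73 for *Pdia4* and 0.67 for *Xbp1*. With the mean of each group in each batch also taken out, r was 0.92 and 0.75 within the first batch, and 0.68 and 0.69 within the second.

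*Calr* had r = 0.67 and rho = 0.59 with *Hspa5* (permutation p = 0.00027 and 0.00159, limma adjusted p = 0.149). *Sdf2l1* had r = 0.64 and rho = 0.57 (permutation p = 0.00023 and 0.0022, adjusted p = 0.149), and *Hsp90b1* r = 0.55 and rho = 0.63 (permutation p = 0.00287 and 0.00065, adjusted p = 0.384). These 3 genes did not pass the adjustment over all genes, and their r was positive in both batches, between 0.58 and 0.76. *Herpud1* was less close, with r = 0.41 and rho = 0.43 (permutation p = 0.035 and 0.0278, adjusted p = 0.681). Without the 2 mice the r of *Calr*, *Sdf2l1*, *Hsp90b1* and *Herpud1* was 0.65, 0.54, 0.59 and 0.41. In all, 16 relations of a member with *Hspa5* or *Atf4* were computed.

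For the integrated stress response genes no correlation with *Hspa5* passed the threshold. *Ddit3* had r = 0.15 and rho = 0.093 (permutation p = 0.459 and 0.642), falling to -0.0065 without the 2 mice. *Atf4* had r = -0.32 and rho = -0.34 (permutation p = 0.108 and 0.0793, adjusted p = 0.755), and r was negative in both batches, at -0.48 and -0.39. Between *Atf4* and *Ddit3* themselves r was 0.058 (rho = 0.053, permutation p = 0.776 and 0.79).

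**Figure D3:**
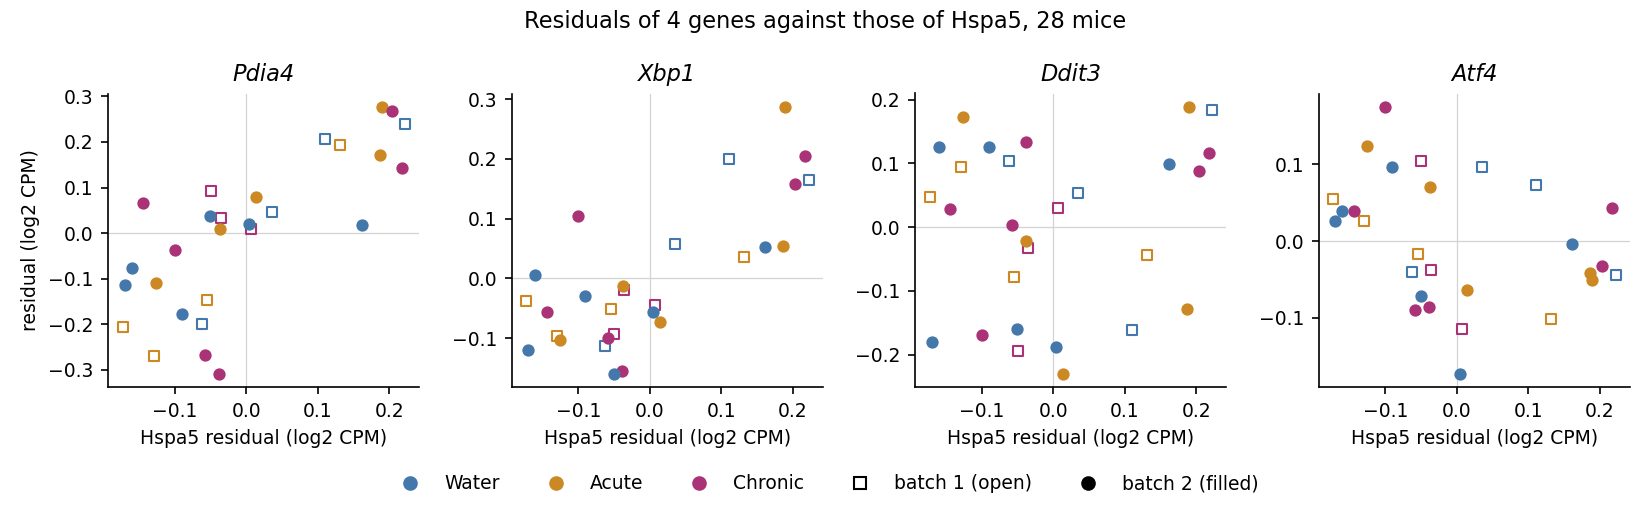
Residuals of *Pdia4*, *Xbp1*, *Ddit3* and *Atf4* (vertical axes, log2 CPM after additive terms for batch and group) against those of *Hspa5* (horizontal axes) in 28 mice, with colours for the drinking groups, open squares for batch 1 and filled circles for batch 2. The points rise from lower left to upper right for *Pdia4* (r = 0.76) and *Xbp1* (r = 0.74) and not for *Ddit3* (r = 0.15) or *Atf4* (r = -0.32).

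The calls for *Pdia4* and *Xbp1* depended on 5 mice that were left out in turn. Without Water mouse 40, Acute mouse 2 or Chronic mouse 6, 0 members were called (adjusted p of *Pdia4* 0.0642, 0.0666 and 0.0870, and of *Xbp1* 0.0801, 0.0985 and 0.0914). Without Chronic mouse 4 or Water mouse 2, *Pdia4* alone was called, with *Xbp1* at an adjusted p of 0.0940 and 0.0510. Over all 28 omissions r stayed between 0.73 and 0.81 for *Pdia4* and between 0.71 and 0.79 for *Xbp1*.

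The pairs other than those with *Hspa5* fell into the pattern shown by the matrix of correlations, given as a description over the same 28 mice. *Pdia4*, *Xbp1* and *Herpud1* had r of 0.73, 0.65 and 0.62 with each other. *Hsp90b1* and *Calr* had r = 0.61, but *Hsp90b1* had r of 0.034 with *Xbp1* and -0.019 with *Herpud1*. *Calr* was at 0.40 with *Xbp1* and 0.029 with *Herpud1*. *Hspa5* was thus positively correlated with *Hsp90b1* and with *Xbp1*, which had little correlation with each other.

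**Figure D4:**
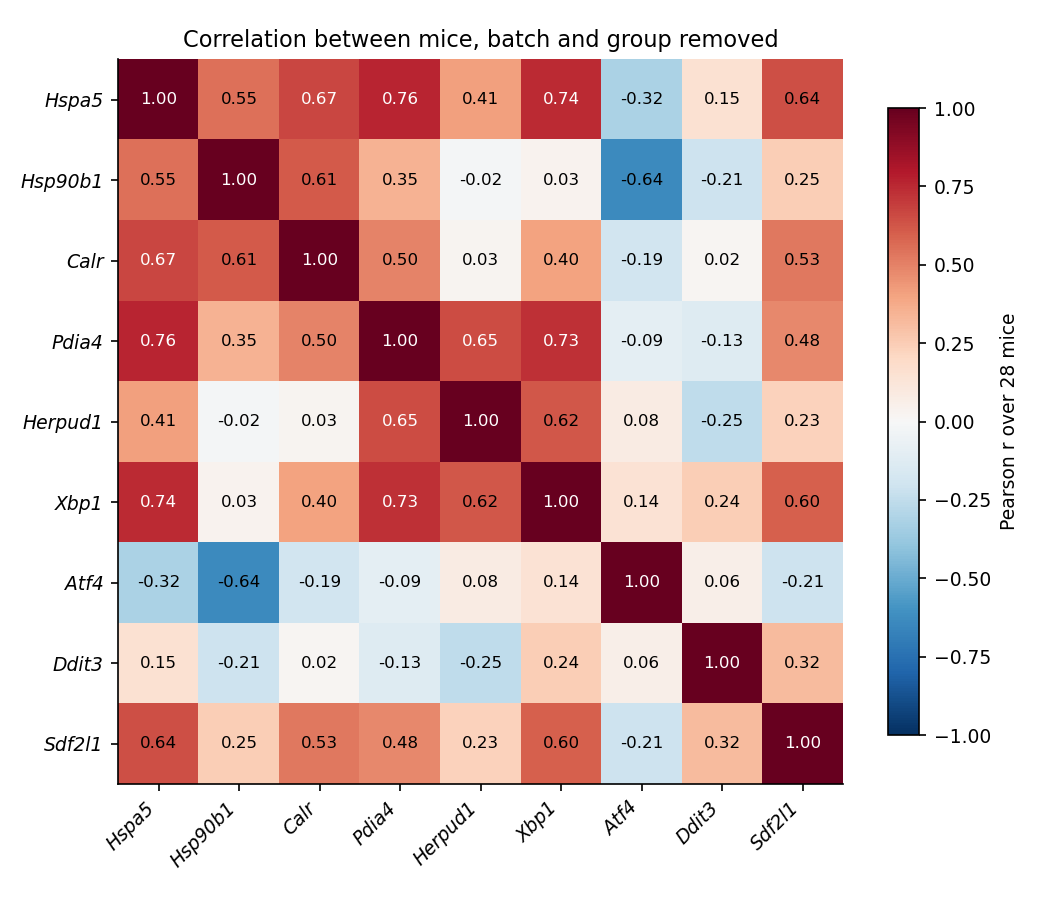
Pearson's r between the residuals of the 9 tested genes over 28 mice, from -1 (blue) to 1 (red), after additive terms for batch and group. *Hspa5*, *Pdia4* and *Xbp1* form the reddest block (0.73 to 0.76), and the row of *Atf4* holds the lowest value, -0.64 with *Hsp90b1*.

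The 10 genes of highest r with *Hspa5* over the whole table included *Pdia4*, *Xbp1* and 8 genes that are no members. Among these 8 were *Hspb1*, a small heat shock protein of the cytosol (r = 0.80, adjusted p = 0.0145), *Pdia6*, a disulfide isomerase (r = 0.78, adjusted p = 0.0192), *Lman2*, a cargo lectin (r = 0.77, adjusted p = 0.0363), *Manf*, an ER-resident secreted cofactor of BiP (r = 0.77, adjusted p = 0.0192), and *Dnajb11*, a J-domain partner of BiP (r = 0.76, adjusted p = 0.0363). The others were *Tmem185a*, *Rbfox2* and *Papola*, at r of 0.76, 0.75 and 0.74. Of these 8 genes 6 were in the promoter table. An ERSE was in the window of *Pdia6* and an ERSE-II in that of *Dnajb11*, neither was in those of *Hspb1*, *Lman2*, *Tmem185a* and *Papola*, and *Manf* and *Rbfox2* were not searched. In the first batch alone the r of *Rbfox2* was 0.16 and that of *Pdia6* 0.38, whereas *Hspb1*, *Lman2*, *Manf* and *Dnajb11* were between 0.76 and 0.87.

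Of the 18 tested ER chaperones and folding enzymes outside the members, 3 were called with *Hspa5* (*Pdia6*, *Manf* and *Dnajb11*), 15 had a positive r, and 8 (44.4%) lay above 0.37, the 95th percentile of all genes. Their median r was 0.32, against 0.0049 over all genes. *Dnajc3*, *Pdia3*, *Creld2*, *Canx* and *Hyou1* had r of 0.56, 0.54, 0.50, 0.45 and 0.39, and *Dnajc10*, a reductase of the same lumen, had -0.50. The 15 heat shock genes had a median of 0.26, with 15 positive values and 1 call (*Hspb1*). The medians were 0.053 for 16 genes of ER-associated degradation, 0.073 for the 11 genes of sensors, their proteases and transcription factors, 0.036 for the 7 genes of eIF2, its exchange factor, kinases and phosphatase subunits and -0.0033 for the 20 target genes of ATF4, each with 0 calls.

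**Figure D5:**
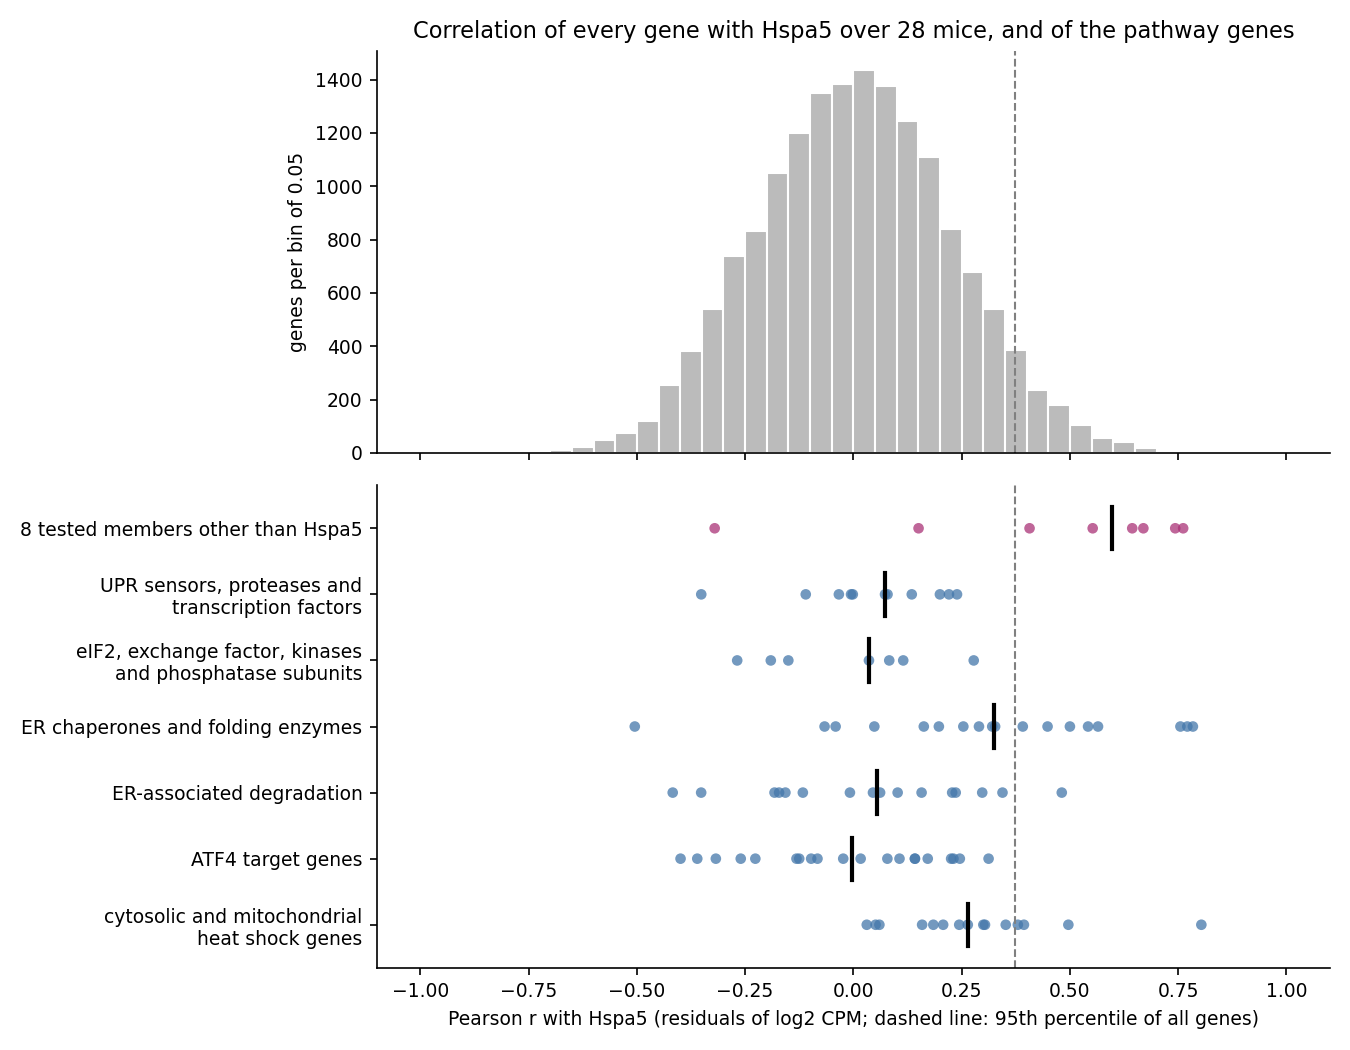
Upper panel, number of genes per bin of r with *Hspa5* over 28 mice for 16265 genes, with the 95th percentile (0.37) dashed. Lower panel, r of each gene of the pathway lists with the list's median as a bar; the ER chaperones (median 0.32) and heat shock genes (0.26) sit to the right of the other pathway lists, whose medians are between -0.0033 and 0.073.

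Against *Atf4*, 0 of the other 8 members had an adjusted p under 0.05, beside 37 of 16265 genes (0.227%). The member farthest from 0 was *Hsp90b1*, with r = -0.64 and rho = -0.59 (permutation p = 0.00034 and 0.00174, limma adjusted p = 0.0945), and r was -0.38 and -0.77 in the batches and -0.49 without the 2 mice farthest from the median of *Atf4*. The 20 target genes of ATF4 had a median r of 0.18, with 2 above the 95th percentile of 0.46 and 0 calls. The 5 genes of highest r with *Atf4* were *Rnps1*, *Klf16*, *Dusp7*, *AI413582* and *Dctn2* (r of 0.76 to 0.81), none of them on a pathway list. With offsets for GC content and gene length, 0 genes were called with *Atf4* and 22 with *Hspa5*.

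Marker genes of the tissue were set beside these relations, as scores that average the log2 CPM of a list. All lists were detected, with 0 markers at 0 on average. Over the 28 mice the neuron score ran from 8.96 to 9.20 and the choroid plexus score, from tissue at the edge of a punch, from 0.73 to 7.36. The residuals of the neuron score had r = 0.56 and rho = 0.55 with those of *Atf4* (permutation p = 0.00146 and 0.00315, adjusted p = 0.0263 over 18 relations), at 0.82 and 0.42 in the batches. With *Hspa5* the neuron score had r = -0.32 and rho = -0.33 (permutation p = 0.0923 and 0.0873, adjusted p = 0.327), at -0.69 and -0.18 in the batches. The choroid plexus score had r = -0.039 (rho = 0.10, permutation p = 0.852 and 0.621), at 0.77 and -0.20 in the batches. The astrocyte score had r = 0.13 (rho = 0.16, permutation p = 0.522 and 0.405), at 0.78 and -0.026. The endothelial score had the highest r with *Hspa5*, 0.27 (rho = 0.23, adjusted permutation p = 0.362), at 0.46 and 0.32 in the batches. Without Water mouse 40 and Chronic mouse 4 that r was 0.085. Microglia, oligodendrocytes, amygdala neurons and striatal neurons were between -0.16 and 0.13. The amygdala neuron score averages basolateral and central markers, so opposite shifts of these can cancel in it. With *Atf4* the scores of endothelial cells, striatal neurons, amygdala neurons and astrocytes had r of -0.33, -0.32, -0.32 and -0.32 (adjusted permutation p = 0.327 each), and microglia, oligodendrocytes and choroid plexus were between -0.20 and 0.060. For total counts and *Hspa5* r was -0.11 (rho = -0.27, permutation p = 0.556 and 0.154), at 0.21 and -0.33 in the batches. The part of these scores in the correlations above was not tested.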

How the data were processed

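Amygdala mRNA of 28 female mice was sequenced in 2 batches. The authors checked reads with FastQC 0.11.8, quantified them with Salmon 0.14.1 against a GRCm38 transcriptome and summarized them by gene with tximport. The deposited values are estimated counts per gene and mouse in whole numbers, 1 table per batch, before batch adjustment and normalization. They take up transcript models, so sequence shared between models is split by the estimate. All columns were used.

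Both tables were merged by gene identifier. Genes that reached a mean of 10 counts were tested with edgeR 4.0.16 (R 4.3.3): TMM normalization, quasi-likelihood test, batch as a covariate, all 3 groups in 1 fit, 2-sided p adjusted by the Benjamini-Hochberg method over all 16266 genes, threshold 0.05. Levels are CPM with batch means removed. Covariation was tested with limma 3.58.1 on log2 CPM (prior count 2). Correlations used 100000 permutations of mice within batches. Fits were tried on simulated data with true log2 fold changes of 0.5 and 1. At 0.5 the test recovered 71% (Acute) and 74% (Chronic) of 100 changed genes, and smaller changes were not simulated. The covariation test recovered 64% of 100 genes given a slope of 1 on *Hspa5*. Total counts of 20004380 to 22569562 per mouse set the counting error. Nothing says that same-numbered mice share a litter or day.

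The 10 genes and the lists were chosen with earlier results of these data known. Named genes are all members, list genes with an unadjusted p under 0.05 in Acute or Chronic against Water (at most 6 per list and comparison), and the genes of highest r with *Hspa5* (10) and *Atf4* (5). *Dnajc3*, *Pdia3*, *Creld2*, *Canx*, *Hyou1*, *Dnajc10*, *Sesn2*, *Slc7a11*, *Ddit4*, *Mbtps1*, *Mbtps2*, *Eif2s1*, *Eif2b5* and *Hsf1* were named after their values were seen. The marker lists were neurons, astrocytes, microglia, oligodendrocytes, endothelial cells, choroid plexus, amygdala neurons (basolateral and central in 1 list) and striatal neurons. Alternatives were DESeq2 1.42.0, ComBat-seq (sva 3.50.0) before DESeq2, limma-voom with sample weights, RLE normalization, no minimum count or 100 counts, each batch alone, only the groups compared, a replicate block, offsets for GC content and gene length, and each mouse left out. All 55 pairs of mice of the same group and batch differed beyond counting error.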

Additional observations from a re-analysis of the deposited data

Results flagged for a closer look

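Within-group values of the 10 genes were examined for a mouse that stands apart, by the gap to its nearest neighbour over the range of its group (Dixon's 95% critical value, on log2 CPM with batch means removed). Of 30 groups of values, 1 held such a mouse, where chance gives about 1 in 20. It was *Xbp1* in Acute mouse 2 of the second batch, at 93.0 CPM against 70.6 to 78.8 in the other 8 Acute mice, with a gap of 0.598 of the range. The same mouse was the highest Acute mouse for *Hspa5*, *Pdia4*, *Herpud1*, *Ddit3*, *Trib3* and *Sdf2l1*. Without it the Acute log2 fold changes against Water came to 0.023 for *Xbp1* (0.066 with it), 0.022 for *Hspa5* (0.050), 0.089 for *Sdf2l1* (0.14), 0.043 for *Herpud1* (0.067), 0.0043 for *Ddit3* (0.032) and -0.064 for *Pdia4* (-0.023). In Chronic against Acute, *Xbp1* came to 0.11 (unadjusted p = 0.0339, edgeR adjusted p = 0.945), against 0.068 with it, *Hspa5* to 0.085 (0.055) and *Pdia4* to 0.11 (0.064), while *Herpud1* (0.017) and *Sdf2l1* (0.036) changed sign. The difference between batches in the Acute effect was then 0.27 for *Pdia4* (unadjusted p = 0.0865) and 0.14 for *Xbp1* (unadjusted p = 0.161). In all these fits 0 members were called.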

How the results depend on the processing

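In all 12 alternatives and in the 28 fits that each left out 1 mouse, 0 members were called in the 3 drinking comparisons, although DESeq2, also after ComBat-seq, gave no adjusted p for *Ddit3* and *Sdf2l1* in Chronic against Water, nor without ComBat-seq for *Sdf2l1* in Acute against Water. The batches disagreed in sign for several members. In the first batch alone the Acute log2 fold change turned to -0.084 for *Hspa5*, 0.025 for *Hsp90b1*, -0.0081 for *Calr*, -0.0047 for *Herpud1*, -0.055 for *Xbp1* and -0.013 for *Ddit3*. The Chronic one turned to -0.00094 for *Hspa5*, -0.058 for *Calr*, -0.0010 for *Pdia4*, -0.00022 for *Xbp1* and -0.067 for *Sdf2l1*, and Chronic against Acute to -0.050 for *Calr* and 0.052 for *Herpud1*. In the second batch alone *Pdia4* (0.11) and *Atf4* (0.0077) turned in Acute, *Ddit3* (0.050) in Chronic, and *Pdia4* (-0.036) and *Sdf2l1* (0.0085) in Chronic against Acute. With offsets for GC content and gene length the Acute values of *Calr* and *Ddit3* became -0.0058 and -0.011, and with the replicate block and these offsets -0.0036 and -0.011. Same-numbered mice of the second batch did not deviate together (16 pairs, r from -0.35 to 0.34, median -0.0080, and 1 of 17 mice closest to its own number), and the replicate block left 0, 3 and 0 genes called over all genes and 0 members. Over fits without 1 mouse, signs changed in *Calr* (-0.011 to 0.023), *Herpud1* (-0.023 to 0.017) and *Sdf2l1* (-0.066 to 0.036) for Chronic against Acute, *Hsp90b1* (-0.029 to 0.011) and *Pdia4* (-0.064 to 0.010) for Acute and *Ddit3* (-0.035 to 0.014) for Chronic against Water. The offsets lowered the genes past an unadjusted p of 0.05 in Chronic against Water from 1702 to 1054 and the called genes from 3 to 1. For the correlations refitted in a batch, 0 members were called with *Hspa5* in either batch alone (*Pdia4* 0.91 and 0.68, *Xbp1* 0.75 and 0.68), where there are 11 and 17 mice, and 0 to 2 without 1 mouse. *Ddit3* with *Hspa5* was -0.056 in the first batch, *Xbp1* with *Atf4* -0.14 and *Ddit3* with *Atf4* -0.46 there, -0.13 with the offsets and -0.079 to 0.18 without 1 mouse, and *Herpud1* with *Atf4* -0.054 in the second batch. The cause of these changes was not tested. The calls with *Atf4* over all genes fell from 37 to 0 with the offsets, and those with *Hspa5* went from 14 to 22.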
